A study of Saccharomyces cerevisiae with 3 samples.

Results

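The 10 genes described here encode the core of the pheromone response of budding yeast (Saccharomyces cerevisiae), and they were examined for methylation of histone H3 at lysine 4. They were taken by name (GPA1, STE4, STE18, STE20, STE11, STE7, FUS3, STE5, STE12 and FAR1) out of 6002 nuclear protein-coding genes, with positions from the RefSeq R64 annotation. Each gene was followed from 500 bp before its start codon to its end, and every deposited peak that touched this region was counted as a peak of that gene. The measured samples were 1 library of chromatin immunoprecipitated for dimethylated H3K4 (H3K4me2) and 1 for trimethylated H3K4 (H3K4me3). An input without antibody was also sequenced and has no peak list of its own here. All 3 samples came from BY4741, a haploid laboratory strain of mating type a with deletions in several nutritional marker genes, grown to mid-log phase in rich glucose medium (YEPD) with no pheromone treatment given in the labels. Cells were fixed with formaldehyde and the chromatin was cut with micrococcal nuclease, which leaves few fragments where nucleosomes are missing.

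In haploid cells the peptide pheromone of the opposite mating type binds a receptor, which frees the beta and gamma subunits of a G protein from the alpha subunit. The freed subunits act through the kinase Ste20 and the scaffold Ste5 on a chain of kinases, Ste11, Ste7 and Fus3, and the last of these acts on the transcription factor Ste12 and on Far1, which arrests the cell cycle. H3K4me3 is laid down by the Set1 complex around the beginning of transcribed genes, and H3K4me2 is typically found further into them.

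The H3K4me2 list held 2998 peaks with a median of 453 tags (sequenced reads counted within a peak) and a median width of 1049 bp. The H3K4me3 list held 3714 peaks with a median of 391 tags and a median width of 972.5 bp. How deeply each library was sequenced is unknown, since tags outside peaks are not counted in these lists. With 1 library per mark there is no replicate check on any value, so no test was run and comparisons with other genes are descriptions. Tags, fold enrichment (the authors' ratio of a peak to a background that the headers do not name) and score were set only against other peaks of the same list.

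Of the 10 pathway genes, 8 had a peak of each mark, and the same 2 genes, STE18 and STE11, had neither. Peaks were then asked to cover at least 50% of the first 500 bp of the gene, or of the whole gene where it is shorter. H3K4me2 met this rule in 6 of 10 genes, against 43.5% of all nuclear protein-coding genes. H3K4me3 met it in 8 of 10 genes, against 64.6% of all genes. Counted over the whole region with any overlap, both marks reached 8 of 10 genes, against 60.4% of all genes for H3K4me2 and 73.9% for H3K4me3. Of the 10 genes 9 are at least 1000 bp long. Among all genes of that length the start was marked by H3K4me2 in 52.2% and by H3K4me3 in 69.5%. By start, 6 of the 10 genes carried both marks (38.4% of all genes), 2 carried H3K4me3 alone (26.2%), 0 carried H3K4me2 alone (5.1%) and 2 carried neither (30.3%). A peak of each mark touched the first 500 bp in 8 of 10 genes, against 44.2% of all genes, and those 2654 genes serve as the comparison for edges and summits. Of the 3592 genes of at least 1000 bp, 1959 had a peak of each mark there. The share with both marks by start was not computed for that length. A change in 1 gene moves each count of the pathway genes by 10 percentage points.

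**Figure D1:**
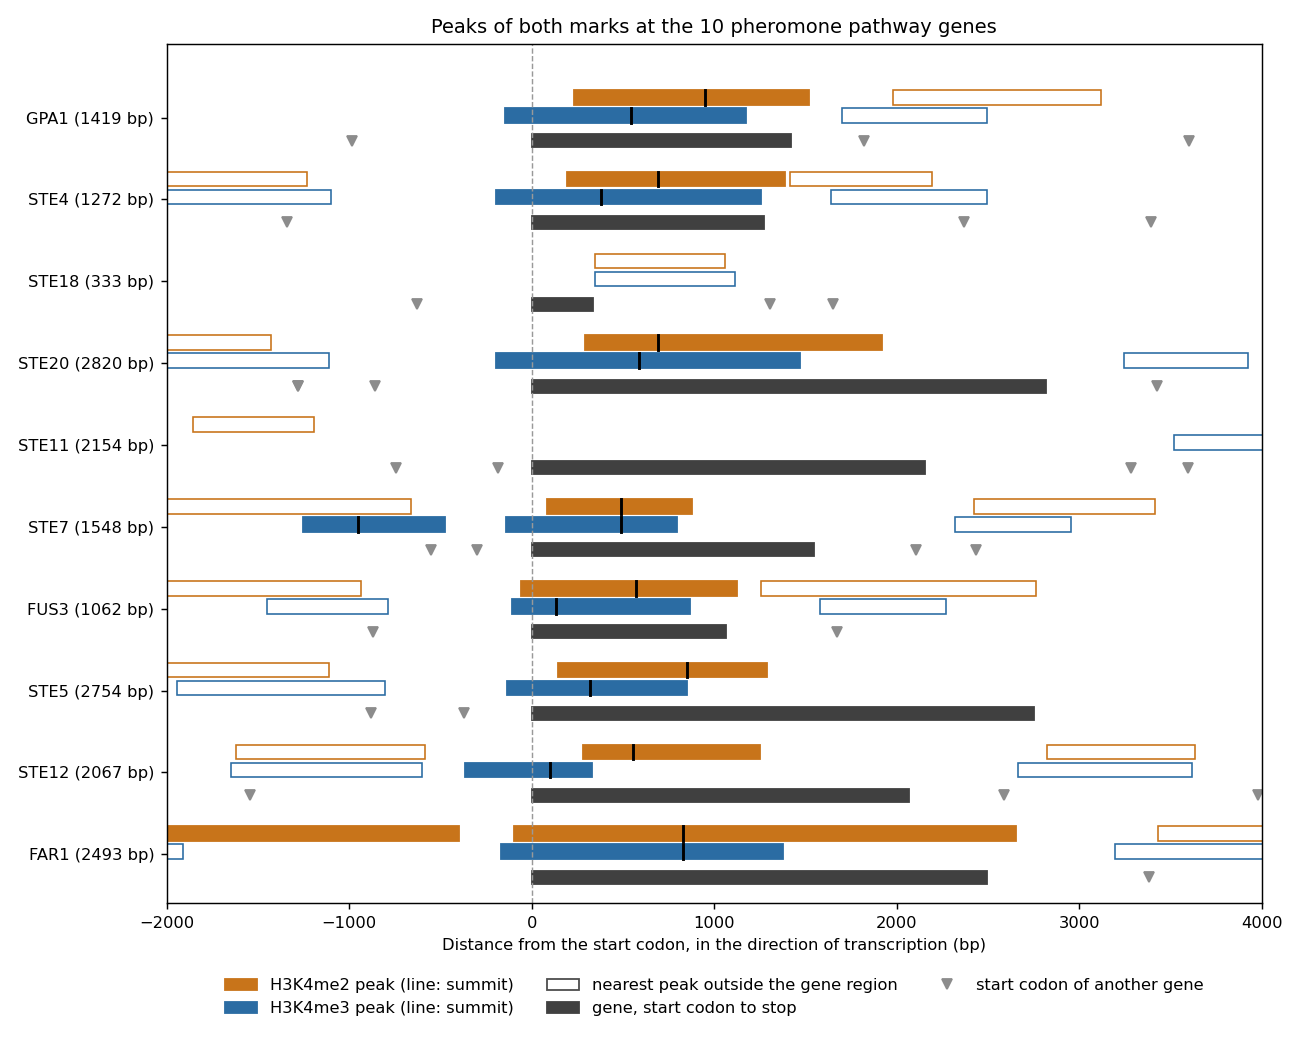
Map of the 10 pathway genes aligned at the start codon, in bp along the direction of transcription, with H3K4me2 peaks above H3K4me3 peaks, summits as black lines and the gene as a dark bar. Filled boxes touch the region from 500 bp before the start codon to the gene end, open boxes are the nearest peaks outside it, and triangles are start codons of other genes. In the 8 marked genes the H3K4me3 peak begins before the start codon, and the H3K4me2 peak begins and ends further along. STE18 and STE11 have no filled box.

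The G protein genes differed: the alpha and beta subunit genes carried similar patterns and the gamma subunit gene carried no peak. GPA1 (YHR005C, chromosome VIII, 113499 to 114917, minus strand) encodes the alpha subunit, which holds the signal off. Its H3K4me2 peak ran from 231 to 1521 bp after the start codon, with its summit at 948 bp, and held 577 tags (exact 95% Poisson interval 531 to 626, for counting error only) at 2.85-fold. Its H3K4me3 peak ran from 146 bp before the start codon to 1172 bp after it, with its summit at 545 bp, and held 583 tags (537 to 632) at 2.83-fold. H3K4me2 covered 53.8% of the first 500 bp, just past the limit, and H3K4me3 covered all of it.

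STE4 (YOR212W, chromosome XV, 742910 to 744181, plus strand) encodes the beta subunit, which carries the signal forward. Its H3K4me2 peak ran from 191 to 1387 bp with the summit at 691 bp and 549 tags. Its H3K4me3 peak ran from 195 bp before the start codon to 1256 bp after it, with the summit at 379 bp and 596 tags. The likeness of patterns was measured as the Jaccard index, the share of 10 bp steps covered in both genes among those covered in either, over both marks from 500 bp before to 1500 bp after the start codon. This span runs past the ends of GPA1 (1419 bp), STE4 (1272 bp) and FUS3 (1062 bp). Peaks beyond the gene count where they fall within it, such as H3K4me2 peaks beginning at 1416 bp for STE4 and 1258 bp for FUS3. GPA1 and STE4 had an index of 0.928, the highest of the 28 pairs among the 8 marked pathway genes (lowest 0.428, median 0.671). Both had a closer match outside the pathway, GPA1 with NUP1 (0.974) and STE4 with LCB3 (0.968), so the pattern is not particular to these subunits. The STE4 H3K4me3 peak covered 98.8% of the gene, and its fold of 2.62 was low in its list, where 13.2% of peaks were lower.

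STE18 (YJR086W, chromosome X, 586068 to 586400, plus strand) encodes the gamma subunit and is the shortest of the 10 at 333 bp. No base from 500 bp before its start codon to its end lay under a peak of either mark. The nearest peaks began just behind it, 17 bp past the gene end for H3K4me2 (262 tags, 2.78-fold, score 67.7) and 12 bp past it for H3K4me3 (345 tags, 3.43-fold, score 270.41). Both of those peaks had their summit at the same base, 637 bp from the STE18 start codon, inside the convergent gene EMC2. Their place outside STE18 therefore rests on peak edges that lie within 20 bp of the gene end. Of the 893 genes under 500 bp, 39.9% had no peak of either mark in the same kind of region, against 19.5% of all genes.

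In the kinase cascade STE20, STE7 and FUS3 were marked and STE11 was not. STE20 (YHL007C, chromosome VIII, 95118 to 97937, minus strand) encodes the p21-activated kinase that phosphorylates Ste11. Its H3K4me2 peak ran from 291 to 1916 bp, with the summit at 692 bp, and held 835 tags (exact interval 779 to 894). Its H3K4me3 peak ran from 197 bp before to 1467 bp after the start codon, with the summit at 587 bp, and held 820 tags (765 to 878). Both were among the wider and richer peaks of their lists: 92.6% of H3K4me2 peaks and 94.4% of H3K4me3 peaks held fewer tags. Because the H3K4me2 peak began late, it covered 41.8% of the first 500 bp, so STE20 counted as marked by H3K4me3 alone at its start although H3K4me2 lay over 57.7% of the gene.

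STE11 (YLR362W, chromosome XII, 849866 to 852019, plus strand) encodes the MAP kinase kinase kinase. It is 2154 bp long and had no base under a peak of either mark, in the gene or in the 500 bp before it. Among genes of at least 2000 bp, 16.5% (219 of 1326) were without any peak in the same region. The nearest H3K4me2 peak ended 1195 bp before the start codon, and the next one behind the gene began 10790 bp past its end. The nearest H3K4me3 peak upstream ended 4395 bp before the start codon, and the next one began 1365 bp past the gene end, over the start codon of the short gene YLR363W-A. The stretch without peaks spanned 14137 bp for H3K4me2 and 7912 bp for H3K4me3, and it is at least as long as the region because STE11 has no peak. The neighbours YLR361C-A, upstream on the opposite strand, and NMD4, downstream, had no peak over their first 500 bp either. Whether reads could be placed there as well as elsewhere was not tested.

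STE7 (YDL159W, chromosome IV, 172481 to 174028, plus strand) encodes the MAP kinase kinase. Its H3K4me2 peak was the narrowest of the pathway genes for that mark, from 83 to 877 bp, with 291 tags (exact interval 259 to 326), and 14.4% of the list held fewer. Its own H3K4me3 peak ran from 144 bp before to 796 bp after the start codon and held 421 tags at 3.38-fold. Both summits fell on the same base, 491 bp into the gene. The H3K4me2 peak had a score of 68.73, near the lowest value of 50.02 in the list, whereas the H3K4me3 peak had a score of 322.18. STE7 was also the only pathway gene whose region was entered by a peak over another start codon. That H3K4me3 peak ran from 1256 to 479 bp before the STE7 start codon and overlapped the region by 22 bp. It lay over the start codon of DHH1, a divergent gene for an RNA helicase of mRNA decapping that starts 551 bp upstream.

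FUS3 (YBL016W, chromosome II, 192451 to 193512, plus strand) encodes the MAP kinase that acts on Ste12 and Far1. H3K4me2 covered every base of the gene, from 61 bp before the start codon to 1126 bp after it, with 593 tags (exact interval 546 to 643) at 3.01-fold, and 88.5% of the list had a lower fold. H3K4me3 ran from 111 bp before to 867 bp after the start codon, with 403 tags (365 to 444), and covered 81.7% of the gene. The summits lay apart, at 571 bp for H3K4me2 and 131 bp for H3K4me3. Both peaks ended before the peaks of the tandem gene ACH1, the nearest of which began 197 bp past the FUS3 end for H3K4me2 and 516 bp past it for H3K4me3. FUS3 shared 79.2% of its marked bases between the marks, the most of the pathway genes.

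STE5 (YDR103W, chromosome IV, 658350 to 661103, plus strand) encodes the scaffold that holds Ste11, Ste7 and Fus3 together. Its H3K4me2 peak ran from 142 to 1288 bp with the summit at 848 bp, and held 482 tags at 2.31-fold, where 12.4% of the list were lower. Its H3K4me3 peak ran from 136 bp before to 850 bp after the start codon with the summit at 319 bp, and held 404 tags at 3.41-fold, where 74.1% of the list were lower. The summits stood 529 bp apart, the widest distance of the pathway genes. Behind 1288 bp the remaining part of this 2754 bp gene carried no peak of either mark.

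At the output of the pathway, STE12 had nearly separate blocks of each mark and FAR1 was covered by H3K4me2 from end to end. STE12 (YHR084W, chromosome VIII, 274174 to 276240, plus strand) encodes the transcription factor that binds pheromone response elements. Its H3K4me2 peak ran from 279 to 1252 bp with the summit at 557 bp and 382 tags (exact interval 345 to 422). Its H3K4me3 peak ran from 364 bp before to 327 bp after the start codon with the summit at 99 bp and 247 tags (217 to 280). The marks met over 49 bp alone, 3.03% of the 1617 bp under either mark. Of 2654 genes with a peak of each mark touching the first 500 bp, 0.226% had a lower share, and the median was 64.8%. In these genes the H3K4me3 peak ended earlier than in STE12 in 0.49%, and it began further upstream in 10.4%. The STE12 H3K4me3 peak was weak for its list, with a score of 102.82 and 12.1% of peaks holding fewer tags. The STE12 H3K4me2 peak had a score of 84.75, against a list median of 163.745, and was lost with a score of at least 100. The part of weak peaks in these edges was not tested.

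**Figure D2:**
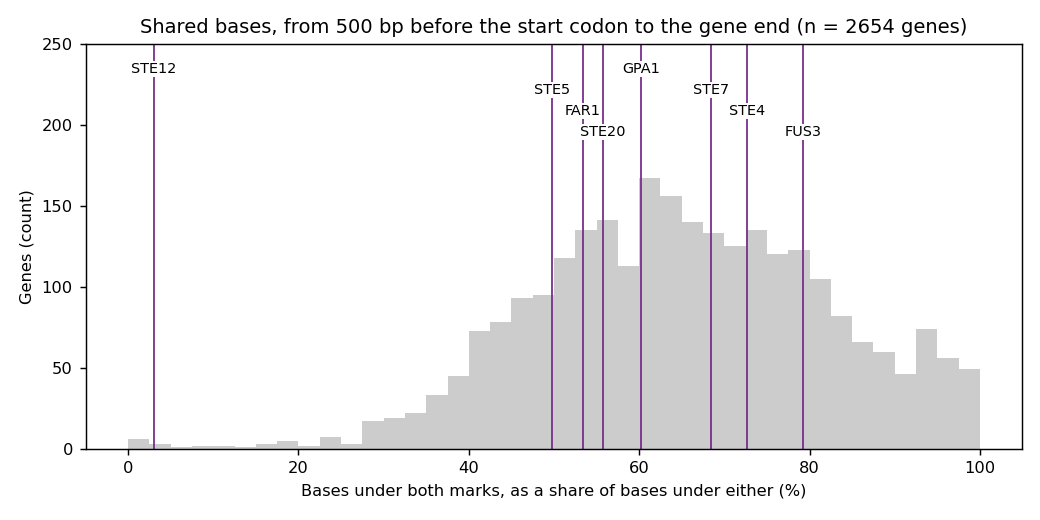
Histogram of the share of bases under both marks among bases under either (%, x axis) for 2654 genes with a peak of each mark touching the first 500 bp (gene count, y axis), measured from 500 bp before the start codon to the gene end. Lines mark the 8 pathway genes: STE12 stands at 3.03%, and the other 7 lie between 49.8% in STE5 and 79.2% in FUS3.

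FAR1 (YJL157C, chromosome X, 123836 to 126328, minus strand) encodes the cyclin-dependent kinase inhibitor that also orients growth towards the mating partner. Its H3K4me2 peak ran from 100 bp before the start codon to 2651 bp after it, 159 bp past the end of the gene, and was 2752 bp wide. It held 1489 tags (exact interval 1414 to 1567) at 3.09-fold with a score of 821.41. In the whole H3K4me2 list 5 peaks were wider and 3 held more tags. Its tags per length were also high, 541.1 per kb, with 95.8% of the list lower. Of the 1326 genes of at least 2000 bp, 15 (1.13%) were covered by H3K4me2 over every base, FAR1 among them. Its H3K4me3 peak, from 170 bp before to 1377 bp after the start codon, covered 55.3% of the gene with 650 tags (601 to 702) at 2.58-fold, and 11.1% of the H3K4me3 list had a lower fold. The summits lay 1 bp apart, at 826 bp for H3K4me2 and 827 bp for H3K4me3. For H3K4me3 this is far into the gene, further than in 96.9% of the 2654 genes. A further H3K4me2 peak, over the upstream tandem gene SSY5, reached 103 bp into the FAR1 region, and its summit lay 2157 bp before the FAR1 start codon.

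**Figure D3:**
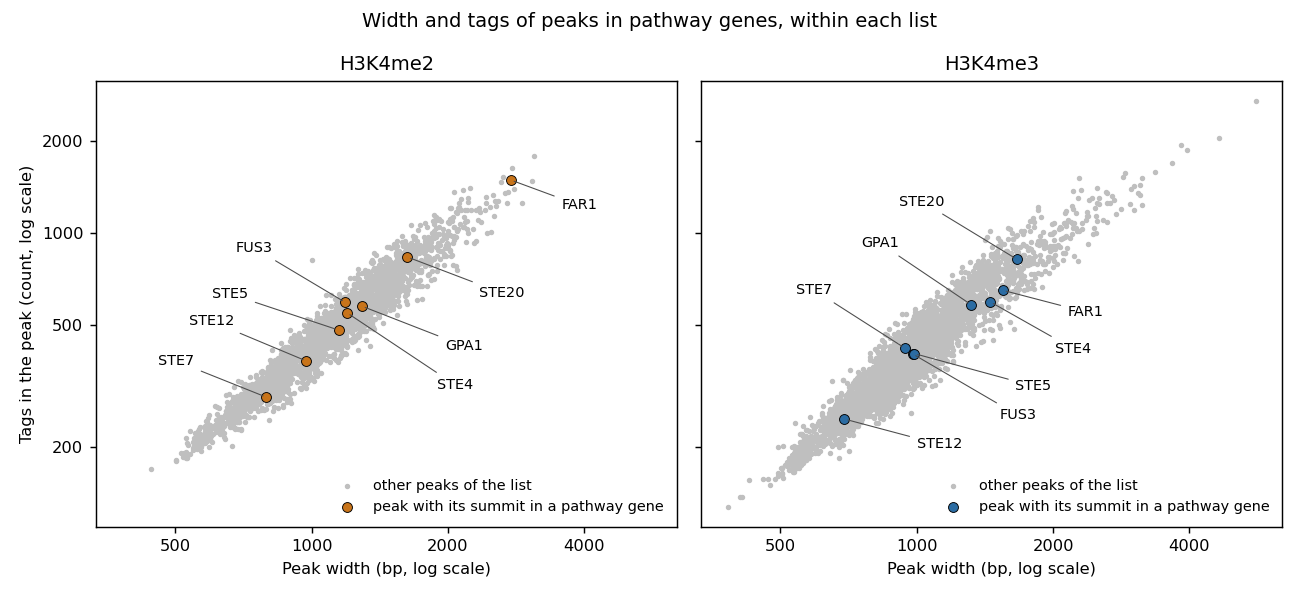
Peak width in bp (x axis, log scale) against tags per peak (y axis, log scale) for the H3K4me2 list and the H3K4me3 list. Coloured points are the 8 peaks of each list with their summit in a pathway gene, and grey points are the other peaks. FAR1 stands at the upper end of the H3K4me2 list with 1489 tags over 2752 bp, STE7 lies lowest of the pathway genes for H3K4me2 with 291 tags, and STE12 lowest for H3K4me3 with 247.

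Across the 8 marked genes the order of the marks was the same at the 5' edge and varied at the summit. The H3K4me3 peak began before the H3K4me2 peak in 8 of 8 genes, against 90.9% of the 2654 genes with a peak of each mark touching the first 500 bp. The start codon lay under H3K4me2 in 2 of 8 genes, FUS3 and FAR1, against 37.9% of the 2654. It lay under H3K4me3 in 8 of 8, against 92.7%. The 5' edge of the H3K4me2 peaks lay at a median of 166.5 bp after the start codon (range -100 to 291), against 62 bp in the 2654 genes. The 5' edge of the H3K4me3 peaks lay at a median of -158 bp (range -364 to -111), against -137 bp.

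The H3K4me2 summit lay further into the gene than the H3K4me3 summit in 6 of 8 genes, against 87.1% of the 2654 genes. In STE7 and FAR1 the summits fell within 1 bp of each other, and summits at most 10 bp apart occurred in 10.9% of the 2654. Summits of H3K4me2 lay at a median of 691.5 bp (range 491 to 948), against 610 bp in the 2654 genes. In the 1959 of them that are at least 1000 bp long the median was 636 bp. Summits of H3K4me3 lay at a median of 435 bp (range 99 to 827), against 307 bp in the 2654 and 304 bp in the 1959. The H3K4me2 minus H3K4me3 distance between summits had a median of 357.5 bp (range -1 to 529), against 310 bp and 325 bp. Measured between the centres of the covered bases, H3K4me2 lay further in by a median of 334.8 bp, from 122 bp in FUS3 to 784 bp in STE12, and in 8 of 8 genes, against 92.6% of the 2654. The median of this distance was 208.08 bp in the 2654 genes. It was 250 bp in the 1959 of them that are at least 1000 bp long, as the 8 pathway genes are. The STE7 and FAR1 centres include the short stretches of the DHH1 and SSY5 peaks.

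H3K4me3 fold enrichment ran from the low end of the list to its upper part. Its values were 2.83 in GPA1, 2.62 in STE4, 3.24 in STE20, 3.38 in STE7, 3.01 in FUS3, 3.41 in STE5, 2.59 in STE12 and 2.58 in FAR1. The H3K4me3 list had a median of 3.09, so 5 of the 8 lay below it. A lower fold was found in 11.1% of the list for FAR1 and in 74.1% for STE5. Between genes the fold and the tags gave different orders: STE20 held the most H3K4me3 tags and STE5 had the highest fold. H3K4me2 peaks ran past the end of the gene in GPA1, STE4, FUS3 and FAR1, by 65 to 159 bp, and no H3K4me3 peak did. Among the 2654 genes this occurred in 44.5% for H3K4me2 and 27.2% for H3K4me3. These shares are not matched for length: the 8 pathway genes are 1062 bp or longer, whereas the 2654 genes have a lower quartile of 981 bp. Shares for genes of like length were not computed, and whether length bears on these shares was not tested.

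**Figure D4:**
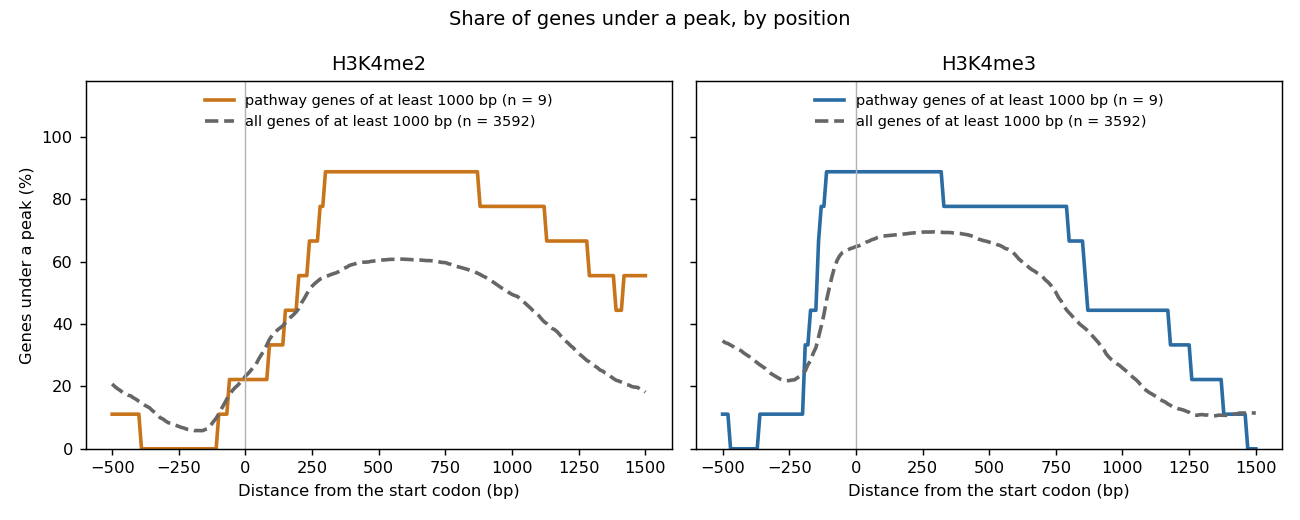
Share of genes under a peak (%, y axis) at each distance from the start codon (bp, x axis) for H3K4me2 and H3K4me3, in the 9 pathway genes of at least 1000 bp (solid line) and all 3592 genes of that length (dashed line). Peaks of neighbouring genes count where they fall within the plotted span. The pathway genes step up to 88.9%, which is 8 of 9, before the start codon for H3K4me3 and at about 300 bp after it for H3K4me2.

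Peaks that touched a pathway gene region were compared with the start codons of other genes. None of the 9 H3K4me2 peaks that touched a gene region lay over another start codon, and 1 of 9 H3K4me3 peaks did, that of DHH1. Of all genes with a marked start, the peak at the start also lay over another gene's start codon in 4.71% for H3K4me2 and 13.7% for H3K4me3. These shares count the peak at the start alone, and no peak at the start of a pathway gene lay over another start codon. The 1 of 9 counts every peak that touched a region, so it is not the same measure as these shares. No difference from all genes is read into so few pathway genes. The summit lay inside the pathway gene in 8 of 9 peaks for each mark. The exceptions were the H3K4me2 peak over SSY5 and the H3K4me3 peak of DHH1, which only touch the stretch before the start codon. This share was not computed for all genes. The upstream neighbour was on the opposite strand in 5 of 10 genes, against 52.0% of all genes, and the gap to it had a median of 540.5 bp, against 455 bp. The short divergent gene YDR102C starts 370 bp before STE5, and the STE5 H3K4me3 peak ended short of it at 136 bp. The short gene YDL159W-A, which starts 299 bp before STE7 on the same strand, lay between the DHH1 and STE7 peaks and carried neither mark.

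For each marked pathway gene, the gene elsewhere in the genome with the most similar pattern was found by the same Jaccard index over 402 steps. Peaks of neighbouring genes within the span count here too, so a match is one of spans and not of genes alone. The closest match was that of STE20 with LCB1, a subunit gene of serine palmitoyltransferase, at 0.99. GPA1 was closest to the nucleoporin gene NUP1 (0.974), STE4 to LCB3 (0.968), STE5 to PAL2 (0.968) and STE7 to SGD1 (0.966). FAR1 was closest to NET1, a gene for a nucleolar protein (0.951), and FUS3 to the mitochondrial malate dehydrogenase gene MDH1 (0.927). STE12 had the least similar match, the gene for the microtubule-bundling protein ASE1, at 0.875.

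A list of 31 other genes of pheromone signalling was examined by role. H3K4me2 covered the start in 18 of 31 (58.1%, against 43.5% of all genes) and H3K4me3 in 20 of 31 (64.5%, against 64.6%). The receptor gene of a cells, STE2, carried both marks, with H3K4me2 over 63.0% and H3K4me3 over 100% of the start window. STE3, the receptor gene of alpha cells, had no peak. Whether this difference goes with mating type was not tested. The pheromone genes MFA1, MFA2, MF(ALPHA)1 and MF(ALPHA)2, which are 111 to 498 bp long, were under no peak of either mark between start codon and stop. In the 500 bp before MFA1, peaks lay over 170 bp for H3K4me2 and 35 bp for H3K4me3, and the other pheromone genes had no peak in that stretch. Of all genes under 500 bp, 39.9% had no peak of either mark from 500 bp before the start codon to the gene end.

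All 6 negative regulators carried both marks at their starts, against 38.4% of all genes, a share that is not matched for length. They are 1470 bp or longer, and among all genes of at least 1000 bp starts were marked by H3K4me2 in 52.2% and by H3K4me3 in 69.5%. They are SST2, which speeds GTP hydrolysis by Gpa1, the phosphatase genes MSG5, PTP2 and PTP3, the Cdc42 GTPase-activating protein gene RGA1, and BAR1, the protease that degrades alpha-factor. H3K4me2 coverage of the start ran from 53.0% in SST2 to 100% in PTP2, PTP3 and RGA1, and H3K4me3 covered 100% in each. The peaks of SST2 were low in fold, 2.23 for H3K4me2 and 2.48 for H3K4me3, and its H3K4me3 score was 96.81. The H3K4me2 peaks of PTP2 and BAR1 had scores of 53.49 and 83.01. These peaks and the H3K4me3 peak of SST2 lie below the stricter score limit of 100.

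Among the 4 regulators that act with or on Ste12, DIG1, DIG2 and MCM1 carried both marks, and KAR4 carried H3K4me3 alone, over 100% of its start and with no H3K4me2 over the gene. MCM1, a general DNA-binding factor, had the highest H3K4me3 fold of the 31 genes at 4.22, with 731 tags. Of the MAP kinase and transcription factor of filamentous growth, TEC1 carried both marks. KSS1, the MAP kinase gene that parallels FUS3, had H3K4me2 over 49.2% of its start, just under the limit, and H3K4me3 over 56.2%. Both KSS1 peaks began inside the gene, whereas the H3K4me3 peaks of the 8 marked pathway genes began before it, with KSS1 edges at 254 bp for H3K4me2 and 219 bp for H3K4me3.

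Of the 5 polarity and scaffold partners, CDC42, CDC24, STE50 and AKR1 carried both marks, and BEM1, a polarity scaffold gene of 1656 bp, had no peak. The peaks over STE50 had their summits 1115 bp (H3K4me2) and 1300 bp (H3K4me3) before its start codon and lay over other start codons as well, so they cannot be given to STE50 alone. Of the 8 genes induced by pheromone, 3 carried H3K4me2 (37.5%, against 43.5% of all genes) and 3 carried H3K4me3 (37.5%, against 64.6%). All but FIG1 are at least 1000 bp long, and among all genes of that length the shares were 52.2% and 69.5%. The agglutinin gene AGA1 and FIG2 carried both, AFR1 H3K4me2 alone and the kinesin gene KAR3 H3K4me3 alone. FUS1, FUS2, PRM1 and FIG1, which act in or around cell fusion, had neither mark at their starts, although H3K4me2 lay over 49.4% of PRM1 beyond the start window. In the 500 bp before FIG1, peaks lay over 123 bp for H3K4me2 and 113 bp for H3K4me3. The same stretch before FUS1 was also touched by a peak.

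**Figure D5:**
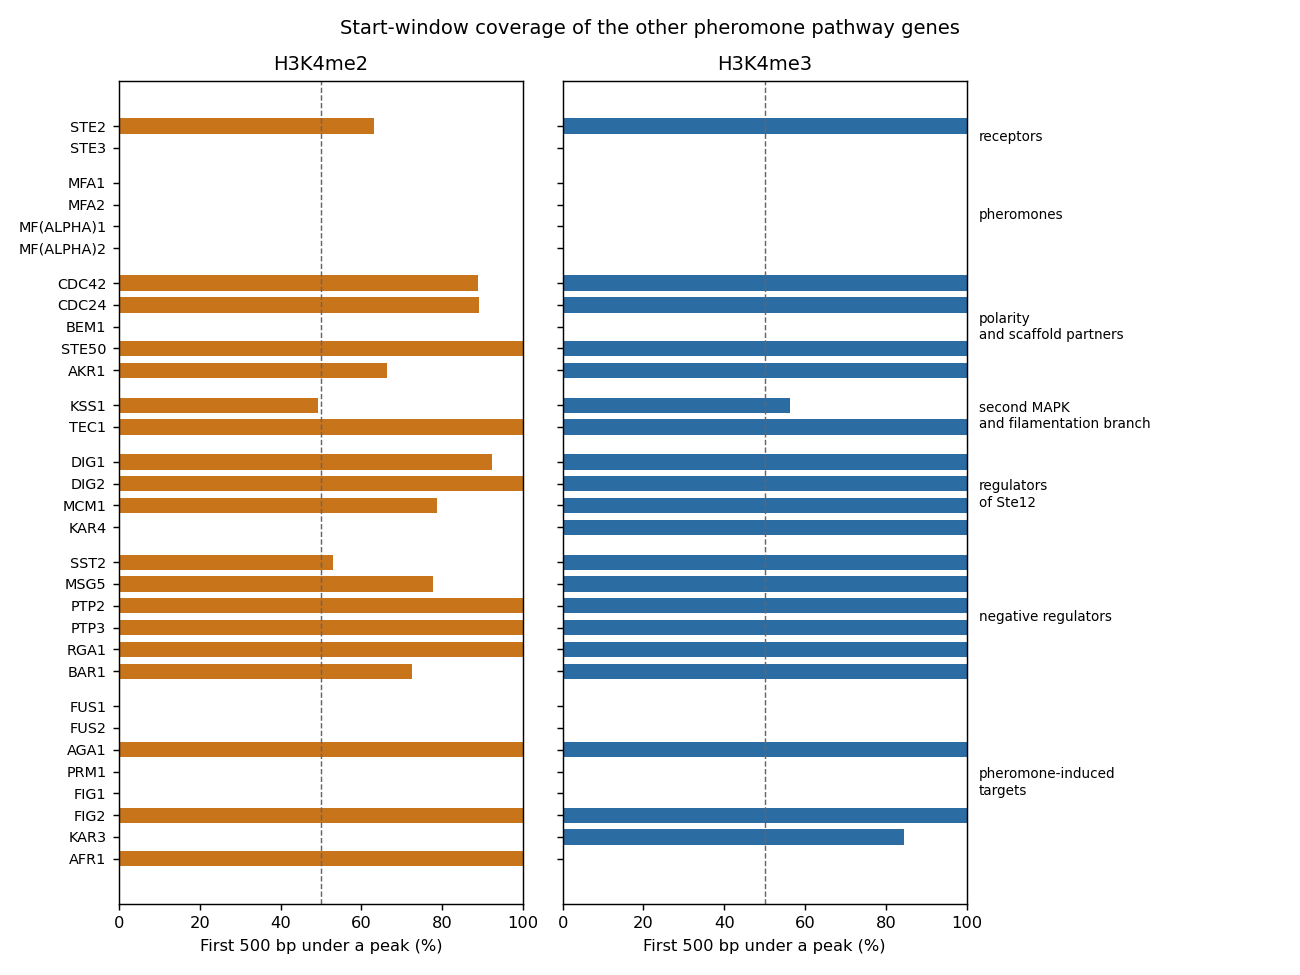
Share of the first 500 bp under a peak (%, x axis) for 31 other genes of pheromone signalling, grouped by role, for H3K4me2 (left) and H3K4me3 (right); the dashed line is the 50% limit. All 6 negative regulators pass it for both marks, the 4 pheromone genes have no bar, and KSS1 lies at 49.2% for H3K4me2.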

How the data were processed

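Peak lists of 1 H3K4me2 and 1 H3K4me3 library were analysed; titles gave the groups. The submitters' processing notes name CASAVA 1.8.2, the peak caller MACS 1.4.2 and build sacCer3. Settings, aligner, control and the handling of reads that match more than 1 place are not given in the sources used. Per the file headers, the authors deposited for each peak a whole-number tag count, not normalised, a fold enrichment (a ratio) and a p-value column. The values of that column all exceed 50, so it was read as the score of MACS, -10 times the log10 of p, a scale that the authors' deposited file does not state. Positions were read as counted from 1, which the headers do not state. 

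Genes came from the RefSeq R64 table, the assembly that sacCer3 names; all 10 pathway genes and all 31 other genes matched by symbol. The W or C of the systematic name gave the strand, and gene positions run from start codon to stop codon. Coverage, edges, summits and centres were computed from the intervals in Python 3.11.15 (scipy 1.17.1, pandas 2.3.3, numpy 2.4.6), with figures by matplotlib 3.10.9. The code was tested on simulated peaks at real genes. For a gene with several peaks, edges and summits are those of the peak with the largest overlap with the first 500 bp. Tag counts have exact 95% Poisson intervals, which cover counting error only. The named genes are the 10 pathway genes, genes whose start codon lies under or next to their peaks, the most similar gene of each, and the 31 others by role. The pathway genes and lists were chosen with earlier results of these data known. Alternatives were stricter or equal-sized peak lists, peaks of 500 bp around the summit, and other windows and overlaps. A planned search of promoters for the Ste12 motif was not run, since it needs sequence that was not used here.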

Additional observations from a re-analysis of the deposited data

How the results depend on the processing

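Each count or distance was computed again under 4 to 9 alternatives, and the median distance between centres kept its sign under each. H3K4me2 at the start, in 6 of 10 genes, was found in 3 with at least 75% of the window, in 3 over the first 250 bp, in 2 from 500 bp before to 500 bp after the start codon and in 1 (STE7) with peaks of 500 bp around the summit; in all genes these settings gave 32.3, 32.5, 24.4 and 16.4%. With at least 25% of the window, or over the first 1000 bp, it was found in 8, STE20 and STE12 included, against 48.1 and 49.4% of all genes. H3K4me3 at the start, in 8 of 10 genes, was found in 3 (STE20, STE7 and STE5) with peaks of at least the list's median fold, against 34.5% of all genes, and in 5 with peaks of 500 bp around the summit, against 51.9%. Over the whole region the H3K4me3 count was also 3 at or above the median fold, against 43.3% of all genes. Under the other 6 alternatives it was 7 or 8, against 63.0 to 72.4% of all genes. The H3K4me2 count over the region was 6 to 8, against 34.8 to 60.4% of all genes. With a score of at least 100, STE7 and STE12 lost their H3K4me2 peaks, and 47.1% of all genes kept such a peak over the region. No pathway gene lost H3K4me3 at that score, where 64.3% of all genes had it over the region. With lists of equal size STE12 lost H3K4me3, and 63.0% of all genes had it over the region.

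The median distance between centres, 334.8 bp over 8 genes, was 334.8 bp over 6 with a score of at least 100, 320.6 bp over 2 (172.6 and 468.5 bp) at or above the median fold, 311.5 bp over 7 with the same number of peaks, and 357.5 bp over 8 with peaks of 500 bp around the summit, where FAR1 gave -1 bp. The 1 peak over another start codon (DHH1) became 0 when regions began at the start codon or 250 bp before it, with an overlap of at least 100 bp, or with peaks of 500 bp around the summit. No paired analysis was possible because each mark has 1 library and no test was run. Depth of the libraries is unknown, so a missing peak says that none was called, not that the mark is absent.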
